A study of Mus musculus with 14 samples.

Results

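Aqp4, Fxyd1, Mlc1, Hepacam, Atp1b2 and Slc4a4 are 6 mouse genes for membrane proteins that move water and ions across the astrocyte surface or anchor such proteins there. They were chosen by name, and all 6 were found among the 27998 genes of the culture tables, the 13338 and 13288 genes of the tables of freshly isolated cells, and the 27144 genes of the RNA immunoprecipitation (RIP) table. Their levels were followed in neural stem cells that came from the subventricular zone, a germinal region of the adult mouse brain.

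The series holds 14 samples. Wildtype cells were cultured for 3 days with BMP4, or with EGF, and each culture gave 1 single-cell library made by 10x Genomics oligo(dT) capture. Freshly isolated cells without treatment gave 1 single-cell library from APLP1-/- mice and 1 from wildtype mice, each with a companion library of hash tags that mark 3 mice per genotype. The hash tag antibodies bind MHC1 and CD45. The other 8 samples are RIP libraries from cultured neurospheres without treatment, with 2 replicates each of the CPEB4 precipitate from wildtype cells, the CPEB4 precipitate from cells labelled CPEB4-/-, the IgG precipitate from wildtype cells and the input of wildtype cells. CPEB4 is an RNA-binding protein that controls the poly(A) tails and translation of its targets. The labels do not give the age of the mice.

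Astrocytes border blood vessels with endfeet, where water and potassium pass between the brain and the vessel. Neural stem cells of the adult subventricular zone share much of the astrocyte transcriptome, most of all when they are quiescent, that is, out of the cell cycle. In culture, EGF keeps such cells dividing, whereas BMP4 takes them out of the cell cycle and raises astrocyte genes. AQP4 is the main water channel of astrocytes. MLC1 and HEPACAM, also known as GlialCAM, form a complex at astrocyte junctions that takes part in cell volume control, and mutations of either cause a leukodystrophy with swollen white matter. ATP1B2 is the beta subunit that glial cells use in the sodium pump, and FXYD1, or phospholemman, is a small regulator of that pump. SLC4A4 carries sodium and bicarbonate together and sets the pH inside and outside the cell.

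The 30 bases just before a transcript start are shown for the genes with a RefSeq promoter of GRCm38.p6 that could be printed, because most of these genes moved together between the cultures and the letters show how unlike their starts are. Capitals mark CG dinucleotides. All of these starts lie inside the gene's full annotated span and not at its outer end. Slc4a4 has a pair of listed starts, at chr5:88887230-88887259 (upstream) and chr5:89027936-89027965 (downstream), both on the plus strand, as is Hepacam at chr9:37367576-37367605. Fxyd1 at chr7:31054854-31054883 and Mlc1 at chr15:88978554-88978583 are on the minus strand.
Slc4a4, upstream start: gCGaaagCGgCGgCGgCGgcagCGgCGgCG
Slc4a4, downstream start: agtgattggttcaaactgattcctgtctca
Fxyd1: agcaaattcctccCGggtgaagtgggagat
Hepacam: ttgtgctCGggcagagaaactcCGagtggt
Mlc1: atgaatacttcttgctggaagtccatcacc

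Over the whole RefSeq window, 250 bases before to 50 after the start, the upstream Slc4a4 start had 80% G or C and 50 CG dinucleotides. Of 32544 mouse windows of this length, 99.1% had fewer. The other 4 windows were ordinary in this respect, with 3 CG dinucleotides at the downstream Slc4a4 start and at Mlc1 and 6 at Fxyd1 and at Hepacam, against a median of 7. The letters TTCNNNGAA, the core of STAT sites, were in none of these 5 windows on either strand and in 8.33% of all windows. TTGGC, the core letters that NFI factors bind, was found 3 times at the upstream Slc4a4 start, 2 times at Hepacam, and 1 time each at the downstream Slc4a4 start and at Mlc1. It was not found at Fxyd1, and 46.9% of all windows hold it. GGCGCC, a SMAD-binding element of BMP target genes, was found 1 time, at the upstream Slc4a4 start, and in 11.9% of all windows. Matches of TTGGC and GGCGCC may overlap, and each match only describes the letters in the window.

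The genes lie apart from each other in the genome. In GRCm38.p6 coordinates, Slc4a4 spans chr5:88793858-89239656 on chromosome 5, Fxyd1 spans chr7:31051678-31055873, Hepacam spans chr9:37367356-37386572, Atp1b2 spans chr11:69599728-69605978, Mlc1 spans chr15:88955884-88982693 and Aqp4 spans chr18:15389394-15410982. Slc4a4 is the longest, at 445799 bases from start to end, and Fxyd1 the shortest, at 4196 bases. Other annotated genes overlap Slc4a4 (Mkrn1-ps1 and Gm35855), Fxyd1 (Gm38984), Mlc1 (Gm8702) and Aqp4 (A830021F12Rik). The strand setting of the counting is unknown, so reads of such partners may not be told apart.

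All 6 genes were higher in the BMP4 culture than in the EGF culture, from 4.28-fold for Mlc1 to 1906-fold for Aqp4. Levels are CPM, a gene's summed count scaled to 1000000 counts of the library, with exact Poisson 95% intervals. Each culture is 1 library, so these differences have no replicate check, and intervals here and below cover counting error only. Of 14502 genes with 10 or more counts over both cultures, 23.1% were at least 2-fold higher with BMP4 and 15.4% at least 2-fold lower, and the median difference was 0.15 on the log2 scale.

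Aqp4 was close to absent with EGF. It had 13751 counts, or 794 CPM (781 to 808), in the BMP4 culture and 14 counts, or 0.417 CPM (0.228 to 0.699), in the EGF culture. The ratio was 1906 (1136 to 3488), which was the fourth largest, at rank 4 of the 14502 genes. In cells of both cultures without a cycle gene count the log2 ratio was 9.42, against 10.90 over all cells. Fxyd1 behaved alike at a far lower level, with 295 counts, or 17.0 CPM (15.1 to 19.1), in the BMP4 culture and 2 counts, or 0.0595 CPM (0.00721 to 0.215), in the EGF culture. Its ratio of 286 has a wide interval (78.5 to 2375), since it rests on 2 counts with EGF, and its rank was 32. Both of those counts lay in EGF cells without a cycle gene count, and among such cells its log2 ratio was 5.80, against 8.16 over all cells.

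The other 4 genes were already well counted with EGF. Atp1b2 reached 511 CPM in the BMP4 culture and 25.3 CPM in the EGF culture, 20.2-fold apart (18.8 to 21.7). For Slc4a4 the BMP4 culture had 402 CPM and the EGF culture 59.8 CPM, 6.72-fold apart (6.39 to 7.06). The partners Hepacam and Mlc1 changed by almost the same factor. Hepacam reached 401 CPM under BMP4 and 86.7 CPM under EGF, 4.62-fold apart (4.42 to 4.82). Mlc1 reached 337 CPM under BMP4 and 78.7 CPM under EGF, 4.28-fold apart (4.09 to 4.48). By rank these ratios stood at 325 for Atp1b2, 825 for Slc4a4, 1229 for Hepacam and 1315 for Mlc1.

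**Figure D1:**
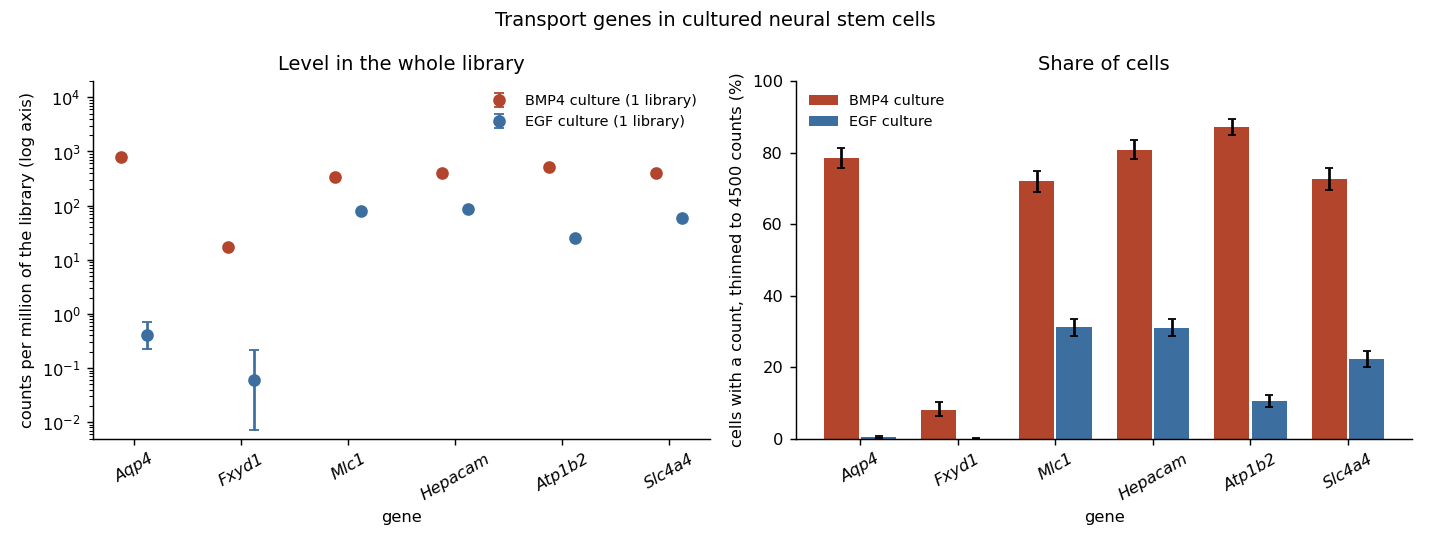
The left panel plots the level of each gene in CPM on a log axis with exact Poisson 95% intervals, and the right panel the percentage of cells with a count at 4500 counts a cell with exact binomial 95% intervals (BMP4 and EGF cultures, 1 library each). Aqp4 reached 794 CPM under BMP4 and 0.417 CPM under EGF, while Mlc1 and Hepacam differ by 4.28-fold and 4.62-fold.

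The difference lay in the share of cells with a count as well as in the sum. Each cell was thinned at random to 4500 counts, a depth that all 887 BMP4 cells and all 1410 EGF cells reached, because the medians of 17355 counts per cell with BMP4 and 22866.5 with EGF differ. At that depth Aqp4 was seen in 78.6% of BMP4 cells (exact binomial interval 75.7 to 81.2) and in 5 of 1410 EGF cells, or 0.355% (0.115 to 0.826). Fxyd1 was seen in 8.12% of BMP4 cells (6.41 to 10.1) and in 0 of 1410 EGF cells, which allows a share of cells with a count of up to 0.213% by the limit of 3 counts (exact binomial upper bound 0.261%). Without thinning, Aqp4 was seen in 90.6% of BMP4 cells and 0.780% of EGF cells, and Fxyd1 in 25.6% and 0.142%. These EGF shares also bound what free RNA could give within that library. They set no bound for the BMP4 library, where Aqp4 was at 794 CPM, and the part of free RNA in the BMP4 shares was not tested.

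Every other gene of the 6 was seen in some EGF cells. At 4500 counts Atp1b2 was seen in 87.3% of BMP4 cells and 10.4% of EGF cells. Hepacam was seen in 80.8% of BMP4 cells and 31.0% of EGF cells, and Mlc1 in 71.9% of BMP4 cells and 31.1% of EGF cells. Slc4a4 was seen in 72.7% of BMP4 cells and 22.3% of EGF cells. The shares without thinning were 91.5% to 99.0% with BMP4 and 40.8% to 81.5% with EGF for these 4 genes.

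Counted per cell, most BMP4 cells held several of the genes at once. At 4500 counts a cell, 625 of 887 BMP4 cells, or 70.5% (67.3 to 73.4), had a count of 4 or more of the 6 genes, against 5 of 1410 EGF cells, or 0.355%. In the BMP4 culture 26 cells held all 6 and 3 cells held none, while in the EGF culture 502 cells held none and no cell held 5 or 6. The share depends on depth: thinned to 2000 counts, 29.3% of BMP4 cells and no EGF cell reached 4 genes, and without thinning 96.7% of BMP4 cells and 20.7% of EGF cells did.

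**Figure D2:**
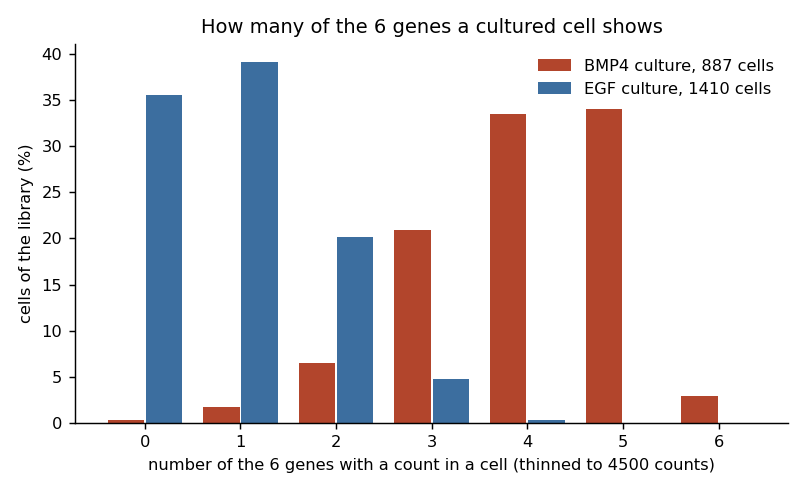
Share of cells, in percent of the library, that hold a count of 0 to 6 of the genes after thinning each cell to 4500 counts, for 887 BMP4 cells and 1410 EGF cells. BMP4 cells pile up at 4 and 5 genes and EGF cells at 0 and 1.

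Over 15 pairs of genes within the BMP4 culture, the share of thinned cells holding both was 0.945 to 1.05 times the product of the single shares. Each gene but Fxyd1 was in 71.9% to 87.3% of thinned cells. Among these genes that leaves this ratio little room, so it cannot show whether they split the cells into separate sets. Fxyd1, in 8.12% of thinned cells, leaves the ratio room to fall. Its pairs ran from 0.945 to 1.05, so Fxyd1 counts were not confined to cells without the other gene. The correlation between the levels of paired genes across cells was between -0.00417 and 0.243. Its highest value was for Aqp4 and Slc4a4 and the next, 0.179, for Hepacam and Slc4a4. These are descriptions of 1 library whose cells share their depth range. Aqp4 was spread most widely, with 1 count at the 10th percentile of BMP4 cells, 10 counts at the median, 36 at the 90th percentile and 129 at most.

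Levels were set against cycle genes and against Gfap, an intermediate filament gene of astrocytes, within the BMP4 culture. In the 169 BMP4 cells with a count of the cycle genes Mki67, Top2a or Cdk1, Aqp4 stood at 739 CPM, against 811 CPM in the 718 cells without one. Fxyd1 was also lower in cells with a cycle gene count, at 11.2 CPM (8.20 to 14.9) against 18.9 CPM (16.6 to 21.3). For Atp1b2 these values were 520 and 508 CPM, and for Slc4a4 391 and 405 CPM, with overlapping intervals. In the 329 BMP4 cells with a Gfap count, Aqp4 stood at 932 CPM (910 to 954), against 686 CPM (669 to 702) in the 558 cells without it. Slc4a4 went the same way, with 475 CPM (459 to 490) in cells with Gfap and 344 CPM (333 to 356) in cells without, whereas Fxyd1 had 13.2 CPM (10.8 to 16.1) with Gfap and 20.04 CPM (17.3 to 23.1) without. Median depth was 19742 counts in cells with Gfap and 16139 in cells without, and its part in these values was not tested.

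In the EGF culture, the cells without a cycle gene count were nowhere near the BMP4 level. Aqp4 had 7 counts, or 1.19 CPM, in the 298 EGF cells without a cycle gene count and 7 counts, or 0.253 CPM, in the 1112 cells with one. Mlc1 stood at 92.6 CPM without and 75.7 CPM with a cycle gene count. The marker lists of cell states moved along with the 6 genes: the quiescent stem cell and astrocyte list, 15 of 15 detected, summed to 11290 CPM with BMP4 and 3742 CPM with EGF, and the list of active stem cells and transit amplifying progenitors to 390 CPM with BMP4 and 2609 CPM with EGF. Neuroblast markers summed to 174 CPM with BMP4 and 717 CPM with EGF, oligodendrocyte markers to 110 and 38.6 CPM, and endothelial markers to 24.6 and 7.26 CPM. Oligodendrocyte precursor markers summed to 1639 CPM with BMP4 and 1334 CPM with EGF, and microglia markers to 9.99 and 8.75 CPM, with 3 of 10 detected. The part of any of these in the results was not tested.

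Other genes of water and ion transport were higher with BMP4 more often than lower. Of 40 such genes, 36 had 10 or more counts, of which 24 were at least 2-fold higher with BMP4 and 3 at least 2-fold lower, against 23.1% higher and 15.4% lower over all genes. Their median log2 difference was 1.17, against 0.15 over all genes. In the list of water channels and the dystrophin complex, which holds AQP4 at the endfoot, 8 of 10 were higher and 0 lower. Aqp11, an intracellular water channel, had 1131 counts with BMP4 and 96 with EGF, a ratio of 22.9.

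In the list of sodium pump subunits and regulators, 5 of 7 genes were higher and 1 lower. Atp1b1, a further beta subunit of the pump, had 3415 counts with BMP4 and 1754 with EGF, a ratio of 3.78, and Atp1b3, also a beta subunit, stood at a ratio of 0.994.

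Potassium, chloride and volume channels went both ways, with 4 of 8 higher and 2 lower. Kcnj10, the inward rectifier Kir4.1 of astrocytes, had 935 counts with BMP4 and 285 with EGF, a ratio of 6.37, whereas its partner Kcnj16 had 87 counts with BMP4 and 953 with EGF, a ratio of 0.177. Ttyh1 had a ratio of 3.26 and Lrrc8b, a subunit of the volume-regulated anion channel, a ratio of 0.388. Among bicarbonate and cation-chloride transporters and carbonic anhydrases, 7 of 11 were higher and 0 lower. There Car2, a carbonic anhydrase, had a ratio of 2.92 and Slc4a8 of 2.54, while Slc4a7 had 0.670 and the cotransporter gene Slc12a2 0.807.

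Freshly isolated cells were far shallower than cultured cells, with a median of 424 counts per cell over 1879 APLP1-/- cells and 364 over 2209 wildtype cells. They were clustered without the 6 genes and Aplp1, and clusters were named from marker genes. The classes were quiescent stem cell or astrocyte-like (695 APLP1-/- and 1141 wildtype cells), active stem cell or transit amplifying-like (358 and 286), neuroblast-like (260 and 268), mature neuron-like (62 and 40), microglia or macrophage-like (42 and 30), endothelial-like (21 and 18) and unnamed (441 and 426). In the quiescent class the quiescent and astrocyte markers, 14 of 14 detected, summed to 50804 CPM in APLP1-/- cells and 52851 CPM in wildtype cells, against 3363 and 4265 CPM in the active class. Quiescent stem cells and astrocytes were not separated from each other. No doublet removal was made, and 1 to 13 cell barcodes were shared between any pair of single-cell libraries.

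In both libraries the 6 genes were counted mostly in the quiescent class. It held 23.8% of all counts of the APLP1-/- library but 75.2% of the counts of the 6 genes, and 38.1% and 81.2% in the wildtype library. Summed over the 6 genes, the level in the quiescent class was 9.73 times that of all other cells in the APLP1-/- library (8.69 to 10.9) and 7.01 times in the wildtype library (6.35 to 7.77). Clusters were drawn from other genes of the same cells, so the contrast between classes is a description with no test. When only cells with 300 or more counts were clustered, the ratio was 14.6 in the APLP1-/- library and 10.2 in the wildtype library.

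By gene, Slc4a4 was among the most unequal. It stood at 1256 CPM (1131 to 1391) in quiescent cells and 96.2 CPM in the other cells of the APLP1-/- library, a ratio of 13.1, and at 1388 CPM (1279 to 1503) and 157 CPM in the wildtype library, a ratio of 8.85. Atp1b2 had 1325 CPM (1196 to 1463) and 118 CPM in the APLP1-/- library, a ratio of 11.3, and 1422 CPM (1312 to 1539) and 210 CPM in the wildtype library, a ratio of 6.79. Aqp4 had 390 CPM (322 to 469) in quiescent cells and 53.4 CPM in the other cells of the APLP1-/- library, a ratio of 7.30 (5.19 to 10.4), and 672 CPM (597 to 754) and 52.7 CPM in the wildtype library, a ratio of 12.7 (9.03 to 18.5). The intervals of these Aqp4 ratios overlap. Clustering only the cells with 300 or more counts gave Aqp4 ratios of 44.4 in the APLP1-/- library and 17.8 in the wildtype library, so the order of the libraries is not settled.

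Fxyd1, Mlc1 and Hepacam were also higher in the quiescent class of both libraries. In quiescent and other cells, Fxyd1 had 507 and 58.8 CPM in the APLP1-/- library and 605 and 107 CPM in the wildtype library, ratios of 8.62 and 5.66. Mlc1 had 298 and 39.6 CPM in the APLP1-/- library and 248 and 49.9 CPM in the wildtype library, ratios of 7.53 and 4.97. Hepacam had 448 and 68.4 CPM in the APLP1-/- library and 435 and 104 CPM in the wildtype library, ratios of 6.55 and 4.19.

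The class order of the 6 genes summed was led by the quiescent class, at 4223 CPM in APLP1-/- cells and 4769 CPM in wildtype cells. The unnamed cells came next, at 1257 and 1743 CPM, and their quiescent and astrocyte markers summed to 17876 and 20769 CPM. Of the counts of the 6 genes outside the quiescent class, they held 280 of 406 in the APLP1-/- library and 330 of 477 in the wildtype library. The unnamed cells include a cluster of 181 cells led by Klf4 and Fos. In that cluster Atp1b2 had 537 CPM in APLP1-/- cells and 665 CPM in wildtype cells. The mature neuron-like class followed at 313 and 831 CPM, and its quiescent and astrocyte markers summed to 2532 and 12467 CPM. The active class stood at 205 CPM in APLP1-/- cells and 288 CPM in wildtype cells, and the neuroblast-like class at 68.9 and 182 CPM. In the endothelial-like class, of 6788 and 6002 counts in all, and in the microglia-like class the sums were 83.4 to 262 CPM, too few counts to order them against the active and neuroblast-like classes.

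Neuroblast-like cells serve as a measure of background for Aqp4, since neuroblasts are not known for AQP4. Aqp4 was seen in 10.5% of APLP1-/- quiescent cells and 15.8% of wildtype quiescent cells, against 0 of 260 APLP1-/- neuroblast-like cells, which allows up to 17.2 CPM by the limit of 3 counts (exact Poisson upper bound 21.2 CPM), and 1 of 268 wildtype ones, or 0.373%. Slc4a4 was seen in 24.7% of APLP1-/- and 25.0% of wildtype quiescent cells, against 1.54% and 4.10% of neuroblast-like cells, and Atp1b2 in 31.5% and 31.7%, against 1.15% and 0.746%. In neuroblast-like cells Slc4a4 stood at 23.0 CPM in the APLP1-/- library and 115 CPM in the wildtype library. For Slc4a4 and Atp1b2, background and expression in these cells were not told apart. Median depth was lower in the quiescent class, at 337 and 310 counts per cell, than in the neuroblast-like class, at 450 and 424.5. In the quiescent class markers of other cells were low, with microglia markers at 78.7 CPM in APLP1-/- cells and 74.1 CPM in wildtype cells (4 of 10 detected), oligodendrocyte markers at 147 and 118 CPM and ependymal markers at 99.3 and 183 CPM. Their part in the levels of the 6 genes was not tested.

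**Figure D3:**
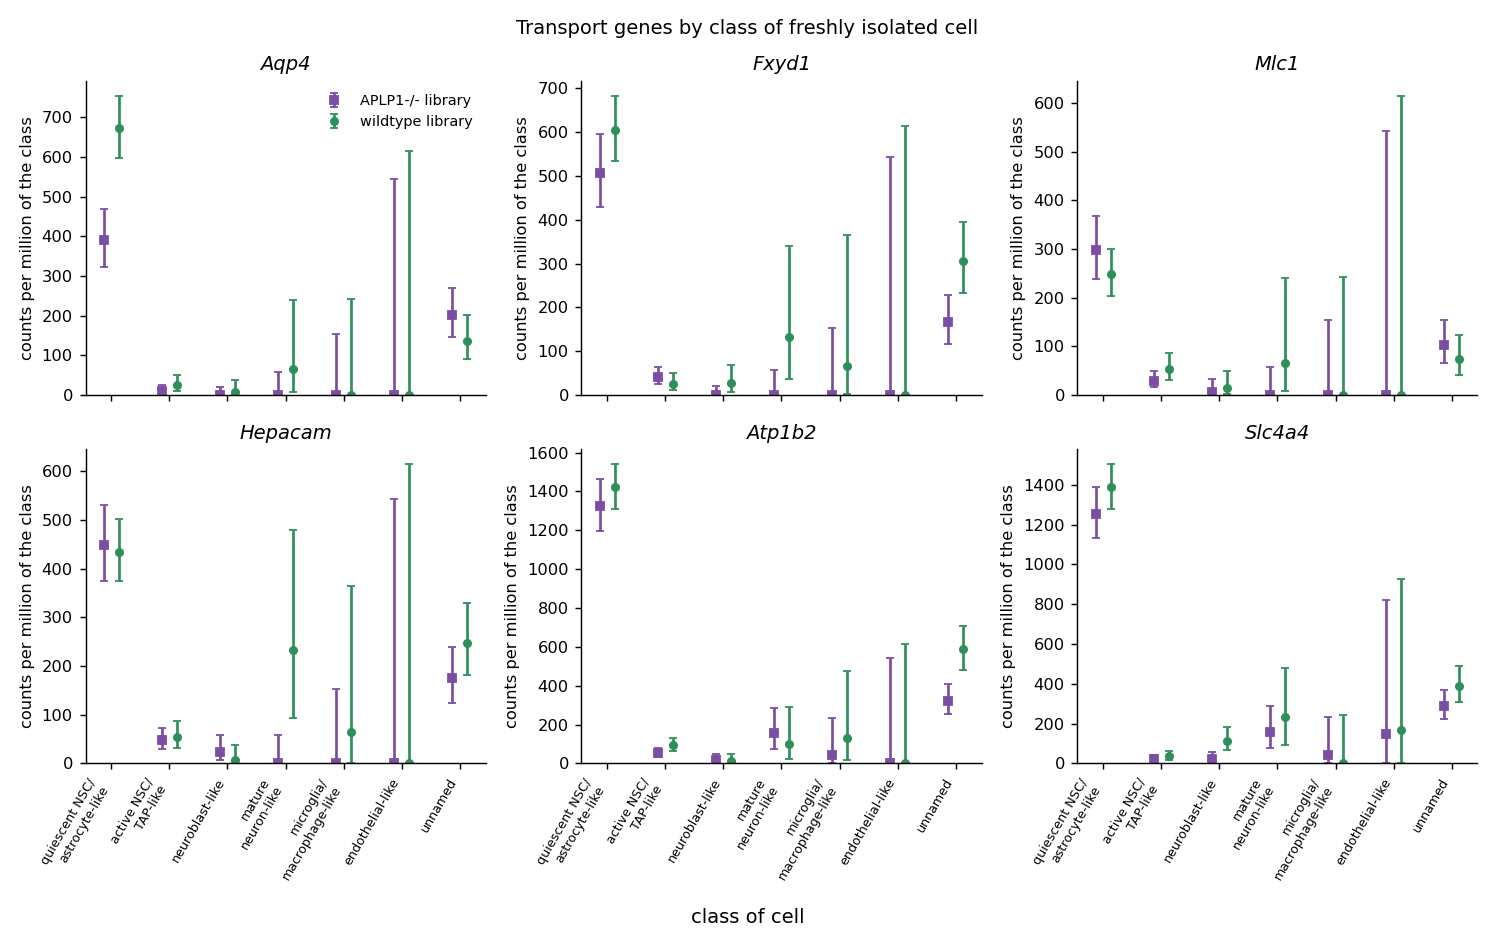
Level of each gene by class of freshly isolated cells, in CPM of the class with exact Poisson 95% intervals, for the APLP1-/- and the wildtype library (NSC, neural stem cell, and TAP, transit amplifying progenitor). The quiescent class has the highest point for every gene in both libraries, and the long bars of the endothelial-like class reflect its 6788 and 6002 counts.

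The quiescent class was made of a pair of clusters, of 1030 cells led by S100a1, Nkain4 and Fbxo2 and of 806 cells led by Selenop, Tril and Grm3. Fxyd1 was higher in the first cluster in both libraries, at 695 CPM against 376 CPM in APLP1-/- cells and 739 CPM against 496 CPM in wildtype cells. Slc4a4 was nearly even between them, at 1265 and 1250 CPM in APLP1-/- cells and 1328 and 1435 CPM in wildtype cells. Mlc1 had 268 CPM (183 to 378) in the first cluster and 318 CPM (240 to 414) in the second in APLP1-/- cells, where the intervals overlap, and 338 CPM (261 to 431) and 175 CPM (126 to 237) in wildtype cells. A quiescent cell with a Fxyd1 count held 3.22 of them on average in the APLP1-/- library and 2.90 in the wildtype library, more than the 1.30 to 2.13 of the other genes, and it is unknown whether these counts stand for molecules or for reads.

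The contrast between classes held within each mouse for the 6 genes summed. Mice could be read from the hash tags for 406 of 1879 APLP1-/- cells and 463 of 2209 wildtype cells. In 6 of 6 mice each of the 6 genes had a higher CPM in quiescent cells than in the mouse's other cells, but some of these contrasts rest on few counts. In the wildtype mouse of hash tag 1, Mlc1 had 3 counts in quiescent and 3 in other cells, and Hepacam 4 and 4. In the APLP1-/- mouse of hash tag 3, Fxyd1 had 7 and 8. Summed over the 6 genes, quiescent cells had 3508 to 5457 CPM and other cells 548 to 1393 CPM, so that no mouse overlapped, and the ratio within a mouse was 3.57 to 6.40. For single genes the ratio ranged from 1.49 for Hepacam and for Mlc1 in the lowest mouse to 26.4 for Slc4a4 in the highest, and Aqp4 was at 0 in the other cells of 2 mice.

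APLP1 is a member of the amyloid precursor protein family. In APLP1-/- mice 0, 7 and 0 counts of Aplp1 were found, against 4, 15 and 22 in wildtype mice, so 1 mouse labelled APLP1-/- held Aplp1 counts. The labels do not state which part of Aplp1 is deleted, so these counts may not check the genotype. The mean was 31.4 CPM in APLP1-/- mice and 183 CPM in wildtype mice (exact permutation p = 0.1, two-sided, the smallest value that 3 mice against 3 allow). In whole libraries all 6 genes were lower in the APLP1-/- library than in the wildtype library, with ratios of 0.463 for Aqp4 (0.381 to 0.560), 0.558 for Fxyd1, 0.595 for Slc4a4, 0.603 for Atp1b2, 0.690 for Hepacam and 0.806 for Mlc1 (0.628 to 1.03). Within the quiescent class, which holds fewer of the APLP1-/- cells, the ratio was 0.581 for Aqp4 (0.463 to 0.724) and near 1 for the others, at 0.838 for Fxyd1 (0.680 to 1.03), 0.905 for Slc4a4 (0.793 to 1.03), 0.931 for Atp1b2 (0.818 to 1.06), 1.03 for Hepacam and 1.20 for Mlc1 (0.895 to 1.61). These libraries have no replicate check of their own.

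Across mice, in tagged cells only, no difference was past the test. These values and the whole-library ratios are not over the same cells. Aqp4 averaged 256 CPM in tagged cells of APLP1-/- mice, against 134 CPM in the whole APLP1-/- library. For wildtype these values were 306 and 289 CPM. Aqp4 stood at 562, 148 and 58.1 CPM in APLP1-/- mice and at 227, 412 and 278 CPM in wildtype mice, so that the genotypes overlapped and 1 APLP1-/- mouse was the highest of all 6. Fxyd1 came closest to a separation, with 374, 269 and 218 CPM in APLP1-/- mice and 429, 518 and 367 CPM in wildtype mice, a mean of 287 ± 79.9 against 438 ± 75.9 (SD, n = 3 each, exact permutation p = 0.2). Its highest APLP1-/- mouse lay just above its lowest wildtype mouse. For Slc4a4 the values were 796, 713 and 421 CPM in APLP1-/- mice and 1137, 366 and 854 CPM in wildtype mice, and for Atp1b2 1201, 592 and 508 CPM and 808, 518 and 1102 CPM.

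The other values also overlapped. Mlc1 had 109, 121 and 160 CPM in APLP1-/- mice and 152, 152 and 288 CPM in wildtype mice, and Hepacam had 218, 458 and 189 CPM and 202, 290 and 377 CPM. The exact permutation p was 0.8 for Aqp4, 0.3 for Mlc1, 1 for Hepacam, 0.9 for Atp1b2 and 0.6 for Slc4a4 (n = 3 each). Quiescent cells were 58.6%, 54.1% and 48.9% of the tagged cells of APLP1-/- mice and 52.4%, 54.9% and 69.5% of those of wildtype mice. In the whole libraries 695 of 1879 APLP1-/- cells and 1141 of 2209 wildtype cells were quiescent. Among quiescent cells alone, Aqp4 averaged 425 CPM in APLP1-/- mice and 577 CPM in wildtype mice (exact permutation p = 0.5, n = 3 each) and Fxyd1 418 and 768 CPM (exact permutation p = 0.2, n = 3 each).

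In edgeR's quasi-likelihood test over the 1109 genes with enough counts, all 6 genes were tested and 0 were called at an adjusted p under 0.05, where 0.0902% of genes were called higher and 0 lower. None of the 6 had an unadjusted p under 0.05, as 59 of all genes did, and DESeq2 called 0. The log2 fold change was -0.56 (SE 0.44) for Fxyd1, -0.59 (SE 0.56) for Mlc1, -0.23 (SE 0.61) for Aqp4, -0.21 (SE 0.38) for Slc4a4, -0.04 (SE 0.37) for Atp1b2 and 0.00 (SE 0.51) for Hepacam. The APLP1-/- mice held 4 to 36 Aqp4 counts each. Without the APLP1-/- mouse that held Aplp1 counts, 0 of the 6 were called and the log2 fold change was -0.55 for Fxyd1, -0.57 for Mlc1, 0.00 for Aqp4, -0.33 for Slc4a4, 0.08 for Atp1b2 and -0.53 for Hepacam.

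**Figure D4:**
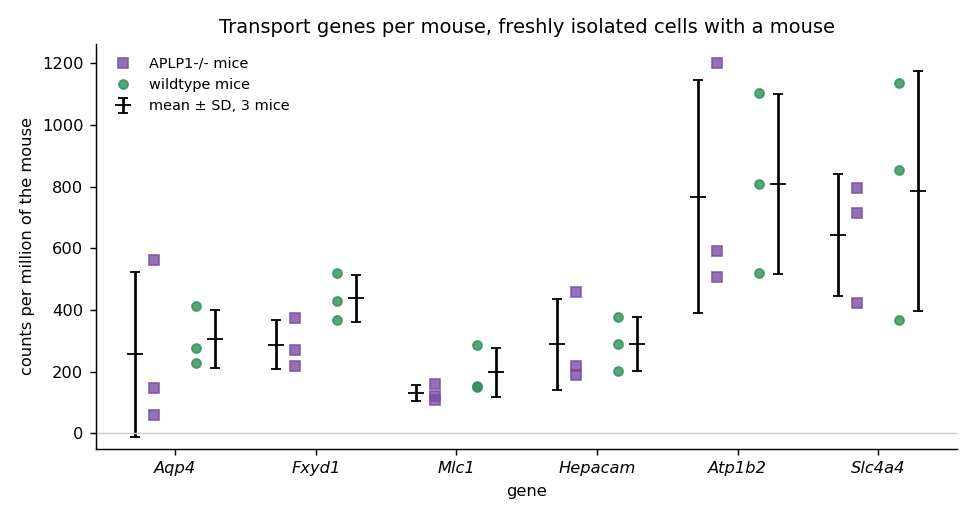
Level of each gene in each mouse, in CPM of the mouse's tagged cells, with mean and SD (3 APLP1-/- and 3 wildtype mice). The genotypes overlap for every gene, and Aqp4 spans 58.1 to 562 CPM among APLP1-/- mice.

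Scaled by trimmed mean of M values (TMM), Slc4a4 was higher and Mlc1 lower in the wildtype CPEB4 precipitate than in input. The same was true of the IgG precipitate in these RIP libraries. Without TMM scaling Slc4a4 was at a log2 fold change of 1.28 and -0.16 and not past the test, while Mlc1 stayed lower. No difference of the 6 genes between the CPEB4 precipitate and IgG, or between wildtype and knockout-labelled cells, was past the test. Levels are given first as counts, then as TMM-scaled CPM. The comparisons share the wildtype precipitate, IgG or input libraries, so they are not independent of each other. In such bulk samples, fewer cells of a type and less RNA per cell cannot be told apart. The labels do not say whether replicates are separate cultures, so p-values measure the spread between these libraries.

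Slc4a4 had 5330 and 3595 counts in the wildtype CPEB4 precipitate, 10011 and 1146 in the knockout-labelled one, 979 and 1703 in IgG and 1844 and 2729 in input. Scaled by TMM, this gave 385 and 284 CPM, 479 and 223 CPM, 228 and 273 CPM, and 36.9 and 63.2 CPM in that order of groups. On this scale all 6 precipitates lay above both inputs, and the knockout-labelled pair enclosed the wildtype pair. The log2 fold change against input was 2.74 (SE 0.57) for the wildtype CPEB4 precipitate, an edgeR adjusted p of 0.00362, where 27.2% of 17062 genes were called higher and 27.4% lower. For IgG against input it was 2.32 (SE 0.56, adjusted p = 0.0148 in edgeR), where 17.9% of genes were called higher and 15.3% lower.

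Mlc1 had 469 and 588 counts in the wildtype CPEB4 precipitate, 622 and 259 in the knockout-labelled one, 259 and 231 in IgG and 6451 and 5942 in input. The scaled levels were 33.9 and 46.5 CPM, 29.7 and 50.4 CPM, 60.2 and 37.0 CPM, and 129 and 138 CPM in the same order. Every precipitate lay below both inputs. The log2 fold change was -1.73 (SE 0.44, adjusted p = 0.00876 in edgeR) for the wildtype CPEB4 precipitate against input and -1.46 (SE 0.44, edgeR adjusted p = 0.0313) for IgG against input. The Slc4a4 call against input held for the wildtype CPEB4 precipitate without any of the 4 libraries (2.33 to 3.11), while that of Mlc1 was lost without wildtype CPEB4 precipitate 1 (adjusted p = 0.0897). For IgG against input, leaving out any of the 4 libraries ended the call of both genes.

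Atp1b2 and Hepacam lay on the same side as Mlc1. Atp1b2 had 754 and 858 counts in the wildtype CPEB4 precipitate, 393 and 305 in the knockout-labelled one, 253 and 222 in IgG and 6916 and 6316 in input. Its scaled levels were 54.5 and 67.8 CPM, 18.8 and 59.4 CPM, 58.8 and 35.5 CPM, and 138 and 146 CPM, so that all precipitates lay below both inputs. Against input its log2 fold change was -1.22 for the wildtype CPEB4 precipitate (SE 0.54, edgeR adjusted p = 0.0792) and -1.60 for IgG (SE 0.55, edgeR adjusted p = 0.0481). The call in IgG was lost without any single library (edgeR adjusted p = 0.101 to 0.277) and with the replicate number as a block (edgeR adjusted p = 0.057).

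Hepacam had 895 and 741 counts in the wildtype CPEB4 precipitate, 1224 and 293 in the knockout-labelled one, 291 and 291 in IgG and 5331 and 5182 in input. Its log2 fold change against input was -0.88 (SE 0.38, adjusted p = 0.0719 in edgeR) for the wildtype CPEB4 precipitate and -0.99 (SE 0.38, edgeR adjusted p = 0.0681) for IgG. It was not past the threshold in either on the TMM scale. Aqp4 was scarce in neurospheres, with 27 and 21 counts in the wildtype CPEB4 precipitate, 52 and 7 in the knockout-labelled one, 5 and 30 in IgG and 68 and 75 in input, and its differences were not past the test. Fxyd1 had 1 count in 1 wildtype CPEB4 precipitate, 1 count in 1 input and 0 in the other 6 libraries, so it was not tested.

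Between the wildtype CPEB4 precipitate and IgG, edgeR called 0 of the 5 tested genes and 0% of 17062 genes in either direction, with 1319 genes at an unadjusted p under 0.05, none of them a member of the 6. DESeq2 called 14 genes, also without them. The log2 fold changes were 0.42 for Slc4a4 (edgeR adjusted p = 0.784), 0.38 for Atp1b2 (0.810), 0.11 for Hepacam, -0.27 for Mlc1 and -0.76 for Aqp4. Against the knockout-labelled precipitate edgeR called 0 of 5 genes and 0% of all genes, with 131 genes at an unadjusted p under 0.05, and DESeq2 called 0. There Atp1b2 had the highest log2 fold change, at 0.66, followed by Hepacam at 0.09, Mlc1 at 0.01, Slc4a4 at -0.07 and Aqp4 at -0.16. Without TMM scaling Atp1b2 was at 1.30 (SE 0.45) against the knockout-labelled precipitate and 1.44 (SE 0.46) against IgG. The medians of all genes were then 0.19 and 1.02, and 0 genes were called in either comparison. By library totals Atp1b2 had 57.1 and 64.5 CPM in the wildtype CPEB4 precipitate. It had 23.3 and 26.1 CPM in the knockout-labelled one and 25.2 and 19.7 CPM in IgG.

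The targeted gene does not set the knockout-labelled libraries apart. Cpeb4 had 3109 and 1025 counts in the wildtype CPEB4 precipitate, 4825 and 1285 in the knockout-labelled one, 239 and 755 in IgG and 808 and 628 in input. Which part of Cpeb4 is deleted is not stated in the labels, so its counts may not check the knockout. The wildtype against knockout-labelled contrast is therefore between libraries by their labels.

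**Figure D5:**
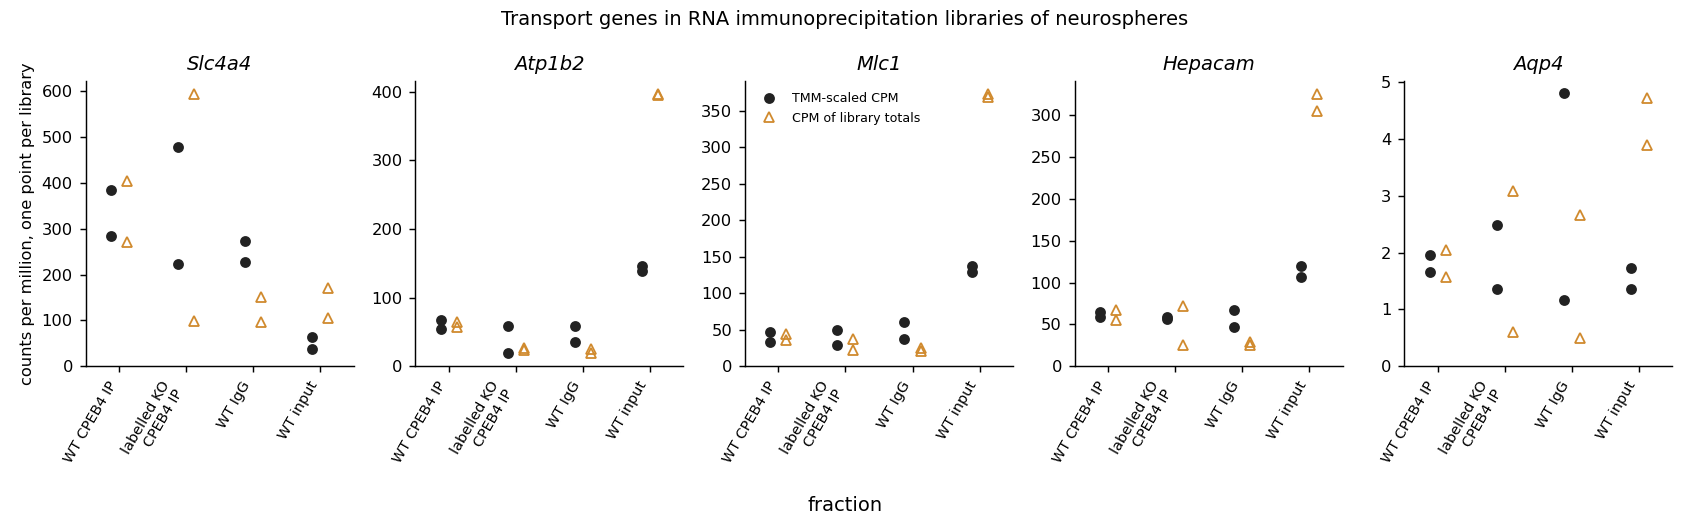
Level of the 5 tested genes in each RIP library, in TMM-scaled CPM (filled circles) and in CPM of library totals (open triangles), with 2 libraries in each group (IP, immunoprecipitate; WT, wildtype; KO, labelled knockout). On the TMM scale Slc4a4 lies above input in all 6 precipitates, which library totals do not show, and Mlc1 and Atp1b2 lie below input in all 6 on both scales.

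The size of the RIP differences depended on the scaling. So did the direction for Aqp4, for Slc4a4 in IgG against input, and for Mlc1 in the wildtype CPEB4 precipitate against IgG. In that last comparison Mlc1 went from -0.27 to 0.79 without TMM scaling, where the median of all genes shifted by 1.02. The 10 most counted genes took 32.0% to 64.2% of the counts of a precipitate and 3.92% to 4.50% of an input. Leaving out TMM scaling shifted the median log2 difference of all genes by -1.47, to -1.57, for the wildtype CPEB4 precipitate and by -2.49, to -2.62, for IgG against input. Slc4a4 was then at 1.28 (edgeR adjusted p = 0.194) for the wildtype CPEB4 precipitate and at -0.16 (edgeR adjusted p = 0.862) for IgG, above both medians but no longer past the test. Mlc1, Atp1b2 and Hepacam were lower under either scaling, at -3.22, -2.70 and -2.35 for the wildtype CPEB4 precipitate and at -4.01, -4.14 and -3.53 for IgG without TMM scaling. All 3 were then past the threshold in both comparisons, with edgeR adjusted p-values of 0.00922 and 0.00115 for Hepacam and 0.00152 and 0.000327 for Atp1b2. On that scale 46.1% of all genes were called lower for the wildtype CPEB4 precipitate and 65.1% for IgG, so such a call was common.

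Length of the gene ran alongside the Slc4a4 result. Of 968 tested genes that span 200 kb or more, as Slc4a4 does, 86.2% were called higher in the wildtype CPEB4 precipitate than in input, against 22.1% of 14553 shorter genes. The median log2 fold change was 3.02 in the long genes and -0.28 in the shorter ones, so 2.74 for Slc4a4 lay below the median of genes as long. For IgG against input 64.6% of the long genes and 13.3% of the shorter ones were called higher. The part of length in the result was not tested.

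Of the other 40 transport genes, 33 were tested in the RIP libraries, and against input 8 were called higher and 9 lower in the wildtype CPEB4 precipitate, close to the 27.2% higher and 27.4% lower over all genes. Their median log2 fold change was 0.02, against -0.09 over all genes. The smallest p-values were those of Lrrc8b, at a log2 fold change of 3.14 (edgeR adjusted p = 0.00185), and of Fxyd6, a further regulator of the sodium pump, at -2.30 (edgeR adjusted p = 0.00229). Without TMM scaling 1 was called higher and 16 lower, where 6.2% of all genes were called higher and 46.1% lower, with Lrrc8b at 1.67 and Fxyd6 at -3.79. For IgG against input 5 were called higher and 5 lower, near the 17.9% and 15.3% over all genes, with Fxyd6 at -2.25 (edgeR adjusted p = 0.00741). Without TMM scaling 0 of them were called higher there and 24 lower, where 2.46% of all genes were called higher and 65.1% lower, with Fxyd6 at -4.75. None of the 4 transport lists held a gene called between the CPEB4 precipitate and IgG, where 0 of all 17062 genes were called. Between genotypes in fresh cells 4 of the transport genes were tested and 0 called, where 1 of all 1109 genes was called.

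The genes most like each of the 6 were found by Pearson correlation of log2(CPM + 10) over 3171 genes, as a description with no test. It was taken across 12 units, each a culture or a named class of fresh cells of 1 library. Unnamed cells and classes of fewer than 10000 counts were left out. Units share libraries and depth. Nearest to Aqp4 were Paqr8 (0.968), Pygb (0.966) and Fbxo2 (0.965), and nearest to Fxyd1 were S1pr1 (0.969), Klf15 (0.955) and Timp3 (0.946). Mlc1 was most like Gprc5b (0.961), Sash1 (0.961) and Prdx6 (0.951), and Hepacam was most like Arap2 (0.918), Mlc1 (0.894) and Gabrg1 (0.893). The partner gene Mlc1 thus stood second among the genes nearest to Hepacam. For Atp1b2 the nearest were Htra1 (0.955), the glutamate transporter gene Slc1a3 (0.932) and Abhd3 (0.910), and for Slc4a4 they were Timp4 (0.943), Pfkm (0.943) and Gabbr2 (0.926). Among the 6 themselves the correlation ran from 0.594 for Hepacam and Slc4a4 to 0.898 for Aqp4 and Mlc1.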

How the data were processed

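The deposited values are integer counts: a gene by cell table for each single-cell library, a table of hash tag counts by barcode, and a gene by library table for the RIP. Per the submitters' processing notes, the authors used Bowtie2, SAMtools and Cell Ranger with the mm10 build. No version, role or filter of these tools is stated. Single-cell libraries held 1133263 to 33603623 counts and RIP libraries 10054346 to 17466296.

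Groups came from the sample labels. The 6 genes, the transport lists and the markers were chosen with earlier results of these data known. Identifiers were matched to symbols for 98.2% to 99.0% of genes, and positions and promoter sequences came from RefSeq (GRCm38.p6). Culture ratios used a pseudocount of 0.5 count for genes with 10 or more counts. Fresh cells were clustered with scanpy 1.11.5 (2000 variable genes, 30 components, 15 neighbours, Leiden resolution 1), without the 6 genes and Aplp1. Clusters were named where a marker list led them and otherwise left unnamed. A cell was given a mouse where at least 10 tag counts were found and at least 75% of them came from 1 tag. Counts were summed per mouse, and mice and RIP libraries were tested with edgeR 4.0.16 (filterByExpr, TMM, robust quasi-likelihood fit, all groups of an assay together) with Benjamini-Hochberg adjustment over all genes tested, and with exact permutation tests from SciPy 1.17.1. DESeq2 1.42.0 was the alternative. In simulated counts the fit recovered 66.5% of 4-fold changes for the wildtype CPEB4 precipitate against input, with 3 false calls. For the mice it recovered 94.5%, with 6 false calls. The simulation gave all genes the same spread and no shift in composition, unlike the RIP libraries, so it does not check the TMM scaling. Transport genes outside the 6 were named by rule: the 2 with the largest differences each way in each list in the cultures and the 2 with the smallest p-values in the RIP fits, and the genes nearest in pattern were the 3 with the highest correlation. A few genes that these rules name are not reported here.

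Alternatives were other normalizations, filters, tag thresholds, clusterings and thinning depths, only the libraries compared, a replicate block, and leaving out each replicate.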

Additional observations from a re-analysis of the deposited data

How the results depend on the processing

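All 6 genes stayed at least 2-fold higher with BMP4 under TMM factors, a mean over cells, cells of 10000 or more counts and cells without a cycle gene count, with log2 ratios of 9.42 to 10.9 for Aqp4, 5.80 to 8.16 for Fxyd1 and 1.89 to 2.10 for Mlc1. The lowest Aqp4, Fxyd1 and Mlc1 values were those of cells without a cycle gene count. The share of BMP4 cells with 4 or more of the genes, 70.5%, was 29.3% thinned to 2000 counts and 96.7% without thinning, as fewer or more counts are looked at. The ratio of the quiescent class to other cells for the 6 genes summed, 9.73 in the APLP1-/- library, was 11.9 at clustering resolution 0.5, 8.29 at resolution 2.0, 8.54 with classes by largest marker share and 14.6 with 300 or more counts a cell. In the wildtype library, at 7.01, the same settings gave 8.23, 5.14, 5.97 and 10.2, and keeping the 6 genes in the clustering gave 7.82.

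Of the mouse comparison, the 1 gene called among all genes was not one of the 6, and 0 were called with 3 or more tag counts, with DESeq2, in quiescent cells only, and with the tag number as a replicate block. It ranged from 0 to 1 without single mice. Signs near zero turned: Hepacam was at -0.51 with 3 or more tag counts, -0.026 with DESeq2 and -0.029 under the block, and Atp1b2 at 0.11 in quiescent cells. Without single mice the log2 fold change ran from -1.58 to 0.23 for Aqp4, -0.53 to 0.23 for Hepacam, -0.58 to 0.26 for Atp1b2 and -0.55 to 0.047 for Slc4a4.

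In the RIP libraries, the wildtype CPEB4 precipitate against input had 2 of the 6 genes called, 4 with only the 4 libraries compared, 3 lower and 0 higher without TMM, and 1 to 2 without single libraries. Over all genes 9327 were called (4647 higher, 4680 lower), 4978 to 6906 without single libraries, and 1057 higher and 7863 lower without TMM. IgG against input had 3 of the genes called and 0 without any single library (0 to 0). Over all genes 5660 were called, 1123 to 2253 without single libraries, 11523 (420 higher, 11103 lower) without TMM, and 3190 higher and 4292 lower without the filter. Against IgG the count over all genes was 0, with 14 by DESeq2, 165 without the filter, 772 with only the 4 libraries and 0 to 0 without single libraries. Between wildtype and knockout-labelled precipitates it was 0, with 50 without the filter and 0 to 14 without single libraries. The cause was not tested.

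Signs also turned in genes that were not called. Against the knockout-labelled precipitate Mlc1 was at -0.0042 with only the 4 libraries, and without single libraries Aqp4 ran from -0.45 to 0.43, Mlc1 from -0.30 to 0.44 and Slc4a4 from -0.51 to 0.61. Atp1b2 kept its sign there without single libraries, at 0.070 to 1.71. Against IgG, Aqp4 was at 0.19 and Mlc1 at 0.79 without TMM, and without single libraries Mlc1 ran from -0.58 to 0.12, Aqp4 from -1.41 to 0.64 and Hepacam from -0.13 to 0.40. Against input, Aqp4 in the wildtype CPEB4 precipitate was at -1.24 without TMM, at -0.048 without the filter and at -0.011 to 0.34 without single libraries. In IgG against input, without TMM Aqp4 was at -1.43 and Slc4a4, which had been called, at -0.16, and without single libraries Aqp4 ran from -0.46 to 1.59.

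The labels do not say that replicate numbers mark a shared batch. Same-numbered deviations from the group means correlated at 0.11 to 0.34 among input and both CPEB4 precipitates and at -0.42 to -0.18 between IgG and these groups, so a pairing is not shown over all RIP groups. Among the mice they correlated at -0.11 to 0.04. With the replicate number as a block, 9129 genes (4597 higher, 4532 lower) were called in the wildtype CPEB4 precipitate against input and 5454 in IgG against input, and of the 6 genes Slc4a4 (2.72) and Mlc1 (-1.74) were called in the first, while Atp1b2 left the calls of IgG against input (adjusted p = 0.057). Depth limits Aqp4 and Fxyd1 most, with 5 to 75 and 0 to 1 counts in a RIP library.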
